A study of Homo sapiens with 7 samples.

Results

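The peaks of O-GlcNAcase (OGA) and of TRIM28 were compared on chromosomes 1 to 22 of BJAB, an established human line of B cells that came from a Burkitt's lymphoma. The members were all peaks of these 2 lists on the autosomes, 2503 for OGA and 43998 for TRIM28, out of 132893 peaks in the 5 lists of the series. Chromatin immunoprecipitation followed by sequencing (ChIP-seq) was used, with 1 library per target and no replicates, from formaldehyde-fixed cells for which the labels give no treatment. The OGA antibody is labelled NCOAT, another name of OGA, and all groups share the 1 cell line, grown over multiple passages. The other lists, for RNA polymerase II (Pol II), for SPT5 and for O-GlcNAc, were used only to describe OGA and TRIM28 sites, and the mouse and rabbit IgG libraries were not analysed here.

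OGA is the enzyme that takes the single sugar O-GlcNAc off serine and threonine residues of nuclear and cytoplasmic proteins, and OGT is the enzyme that puts it on. TRIM28, also known as TIF1b and KAP1, is a scaffold protein. KRAB zinc finger proteins bring it to DNA, where it recruits histone methyltransferases and forms repressed chromatin, and it has also been placed at the promoter-proximal pause of Pol II. SPT5 is part of DSIF, a factor that holds Pol II at the pause and then travels with it. The series title couples OGA to both TRIM28 and SPT5, and the question taken up here is which TRIM28 sites have an OGA peak.

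Because each target had 1 library, no difference below has a replicate check and no p-value is given. Shares carry 95% Wilson intervals, which cover counting error only and treat peaks as independent, although neighbouring peaks are not. The height of a peak is the authors' fold enrichment over a background whose source was not stated, so heights were ranked within 1 list. Where 1 cut in fold enrichment is applied to both lists, or both heights of a pair are given, equal values need not mean equal ranks. Read depth was unknown for both lists, and a shallower OGA library would give fewer OGA peaks.

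Most OGA peaks overlapped a TRIM28 peak, but only a small part of the TRIM28 peaks had an OGA peak. TRIM28 overlapped 90.3% of OGA peaks (2259 of 2503, 89.0% to 91.4%), and OGA overlapped 5.14% of TRIM28 peaks (2260 of 43998, 4.93% to 5.35%). The latter share is the background against which every class of TRIM28 peaks is set below. The relation was nearly 1 to 1: 17 OGA peaks overlapped more than 1 TRIM28 peak, and 18 TRIM28 peaks held more than 1 OGA peak. Each OGA peak was paired with the overlapping TRIM28 peak whose summit was nearest, which gave 2259 pairs.

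Within a pair the OGA peak was mostly the narrower, and its summit lay near the TRIM28 summit. The median widths were 236 bp for OGA and 452 bp for TRIM28, and the TRIM28 peak was the wider in 90.5% of pairs. The OGA peak lay wholly inside the TRIM28 peak in 1694 pairs (74.99%), and the OGA summit lay inside it in 97.6%. Summits were a median of 42 bp apart (95% interval of the median 40 to 45 bp, quartiles 18.5 and 84 bp), 80.7% of them within 100 bp and 4.56% over 250 bp apart. No side was preferred along the chromosome, with the TRIM28 summit at the higher coordinate in 1124 pairs and at the lower in 1118. The overlap covered at least 50% of the shorter peak in 2233 pairs, so few pairs rested on touching edges.

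Width separated the TRIM28 peaks with OGA from those without far more than height in fold enrichment did. TRIM28 peaks with OGA had a median width of 446 bp (interval 437 to 459 bp, quartiles 334 and 604 bp). Those without OGA had a median of 299 bp (298 to 300 bp, quartiles 235 and 394 bp), so that the lower quartile of the former lay above the median of the latter. From the narrowest to the widest decile of TRIM28 peaks, the share with OGA went from 1.00% (0.746% to 1.34%) to 17.3% (16.2% to 18.4%), and it was higher in each decile than in the one before. Of the 301 TRIM28 peaks wider than 1 kb, 79 had OGA (26.2%, 21.6% to 31.5%).

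A wide peak has more room for another peak to touch it. When every peak was replaced by a 200 bp window around its summit, the share still went from 0.977% in the narrowest decile to 15.0% (14.0% to 16.1%) in the widest. The width difference also held within each quintile of TRIM28 height: the median was larger with OGA by 96.0 bp in the lowest quintile, by 186 bp in the next to highest and by 136.5 bp in the highest.

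**Figure D1:**
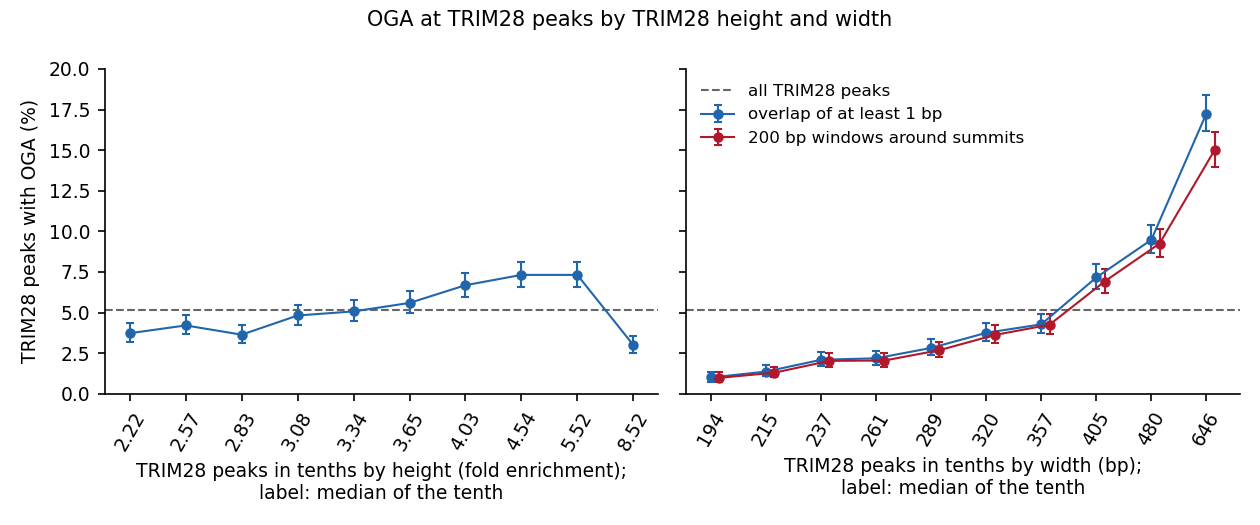
Share of TRIM28 peaks with an OGA peak (y axis, %) in deciles of TRIM28 height (left) and width (right); bars are 95% Wilson intervals, the dashed line is the share over all TRIM28 peaks, and red uses 200 bp windows around summits. The share reached 7.32% in height deciles 8 and 9 and fell to 3.00% in decile 10, whereas by width it ended at 17.3%, or 15.0% with 200 bp windows.

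Height in fold enrichment gave a hump rather than a slope. The median fold enrichment of TRIM28 peaks was 3.73 with OGA (interval 3.68 to 3.805) and 3.47 without (3.47 to 3.49), and the quartiles overlapped widely, at 3.03 and 4.625 against 2.82 and 4.53. The upper tail lay the other way: the 90th percentile was 5.80 with OGA and 6.52 without. By decile of TRIM28 height the OGA share was 3.73% in the lowest, 7.32% in the eighth and in the ninth (6.59% to 8.13% in both), and 3.00% in the highest (2.54% to 3.55%). Of the 1000 highest TRIM28 peaks, 21 had OGA, and of the 100 highest, 2 did. Ranked by −log10 p, which grows with width as well as with height, the decline was smaller, from 12.9% in the ninth decile to 9.07% in the highest. With a −log10 q of at least 5 required in both lists, the difference in median fold enrichment turned from 0.264 to -0.0706, while that in width was 118 bp against 147 bp. The interval half-width of the -0.0706 was 0.0861, larger than the difference itself.

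Height and width together marked out the TRIM28 peaks in which OGA was most frequent. In the next to highest quintile of height (fold enrichment 3.82 to 4.93), OGA was at 0.694% of the narrowest quintile of peaks (0.406% to 1.18%) and at 22.2% of the widest (20.3% to 24.3%). Among peaks of the highest quintile of height, the widest had OGA at 12.1% (10.9% to 13.5%). Low and narrow peaks were not the poorest in OGA, since the lowest quintile of height held OGA at 1.87% of its narrowest peaks.

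The share of TRIM28 peaks with OGA differed with the other targets at the same site. SPT5 overlapped 43.9% of all TRIM28 peaks, Pol II 28.8% and O-GlcNAc 13.1%. SPT5 was at 75.4% of TRIM28 peaks with OGA (73.6% to 77.2%) and at 42.2% of those without (41.7% to 42.7%). Pol II was at 49.4% and 27.6% of them, and O-GlcNAc, the sugar that OGA removes, at 24.8% and 12.4%. TRIM28 peaks overlapped by none of these 3 numbered 24392, and OGA was at 532 of them (2.18%, 2.01% to 2.37%), below the 5.14% of all TRIM28 peaks.

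Where SPT5 was present, Pol II and O-GlcNAc added little to the share with OGA. It was 8.72% (8.06% to 9.43%) at TRIM28 peaks with SPT5 alone, 8.22% (7.60% to 8.88%) with SPT5 and Pol II, and 9.71% (8.95% to 10.5%) with all 3. Without SPT5 the numbers were small: 11 of 185 TRIM28 peaks with Pol II alone had OGA (5.95%, 3.35% to 10.3%), and 11 of 89 with O-GlcNAc alone (12.4%, 7.04% to 20.8%). The interval of the latter class overlaps those of the SPT5 classes.

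In peaks with SPT5, OGA was more frequent the higher the TRIM28 peak was. Over quintiles of height among the TRIM28 peaks overlapped by SPT5, the share with OGA was 4.58%, 4.66%, 6.31%, 9.002% and, in the highest, 19.6% (18.3% to 20.8%). In TRIM28 peaks without SPT5, Pol II or O-GlcNAc the share was lower and formed a shallow hump, from 1.85% (1.50% to 2.26%) in the lowest quintile to 2.83% (2.40% to 3.33%) in the fourth and 1.72% (1.39% to 2.13%) in the highest. These heights reach further up, with a median fold enrichment of 8.09 in the highest quintile against 4.37 in that of the SPT5 class. In the height deciles of all TRIM28 peaks, which set both classes at like heights, the share in the SPT5 class was 19.9% in the eighth decile, 27.2% (24.2% to 30.4%) in the ninth and 27.2% (74 of 272, 22.3% to 32.8%) in the highest. In the class without the 3 targets it was 3.07% (2.56% to 3.69%) in the ninth and 1.36% (56 of 4117, 1.05% to 1.76%) in the highest. Ranked by −log10 p, the highest minus the lowest quintile gave 21.04 percentage points with SPT5 and 2.52 without the 3 targets, against 15.0 and -0.123 by fold enrichment. With a −log10 q of at least 5 these were 10.5 and -2.33 points. That cut also removed weaker peaks of the 3 targets, so the class without them could include sites where such peaks lay. The order of the outer quintiles without the 3 targets thus depended on both choices. The split by SPT5 and its deciles were chosen after seeing the data, and the cause of the difference between the classes was not tested.

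In the SPT5 class the relation to height was also present among peaks of like width. In its widest quintile, OGA was at 7.47% of the lowest TRIM28 peaks (34 of 455) and at 30.9% of the highest (385 of 1245, 28.4% to 33.5%), the latter being the largest share among the quintile combinations examined within this class. In its narrowest quintile the 2 shares were 2.84% and 3.88%, with overlapping intervals. Without the 3 targets the order was the opposite in the widest quintile, 6.21% for the lowest peaks (29 of 467, 4.36% to 8.78%) and 2.49% for the highest (61 of 2450, 1.94% to 3.19%).

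**Figure D2:**
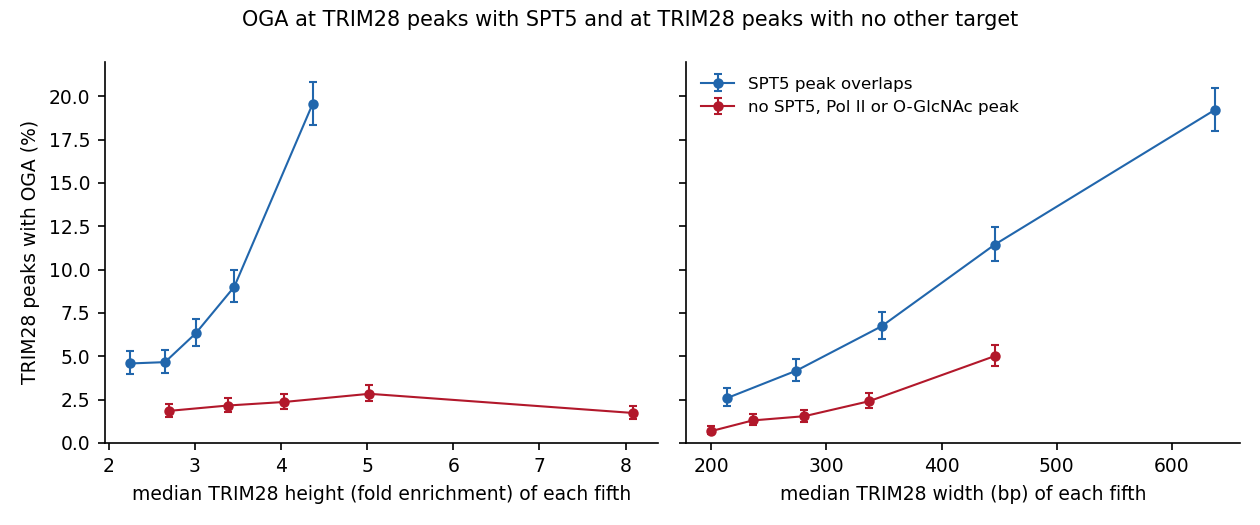
Share of TRIM28 peaks with an OGA peak (y axis, %) against the median height (left) or width (right) of each quintile of TRIM28 peaks, for TRIM28 peaks with an SPT5 peak (blue) and with no SPT5, Pol II or O-GlcNAc peak (red); bars are 95% Wilson intervals. With height, blue goes from 4.58% to 19.6%, and red is at most 2.83% and ends at 1.72%; with width, both go up, to 19.2% and 5.00%.

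In percentage points, the gap in SPT5 between TRIM28 peaks with and without OGA widened with TRIM28 height, from 14.4 to 53.3. The gaps in Pol II and O-GlcNAc did not widen throughout. In the lowest quintile of TRIM28 height, SPT5 was at 85.7% of peaks with OGA and 71.3% of those without. In the highest it was at 62.3% (57.8% to 66.7%) and 9.08% (8.49% to 9.72%). For Pol II the gap was 9.16 points in the lowest quintile, 31.5 in the next to highest and 28.8 in the highest, where the shares were 32.8% and 4.03%. For O-GlcNAc it was between 14.3 and 15.4 points in the lower 4 quintiles and smallest in the highest, at 9.27 points (10.8% and 1.52%). The shares without OGA fell with height for every target, from 49.9% in the lowest quintile for Pol II and 24.1% for O-GlcNAc. As a ratio of shares, the excess was larger in the highest quintile than in the lowest for every target. In the highest quintile of height, a TRIM28 peak with OGA therefore mostly had SPT5, and one without OGA seldom did. This did not extend to the very highest: of the 30 pairs with a TRIM28 fold enrichment of at least 10, 40.0% had SPT5.

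TRIM28 peaks with OGA lay in denser neighbourhoods of TRIM28. The nearest other TRIM28 summit was a median of 3524 bp away (3185 to 3888 bp) from TRIM28 peaks with OGA and 7073 bp (6910 to 7244 bp) from those without. Another TRIM28 summit lay within 50 kb of 93.1% of the former (92.0% to 94.1%) and 87.2% of the latter, and the median number within that distance was 5 against 3. Within 10 kb the shares were 70.2% and 57.5%. The share with OGA went from 2.84% (2.43% to 3.31%) among the 5492 TRIM28 peaks with no other within 50 kb to 7.92% (7.26% to 8.65%) among the 5805 with 10 or more, and to 10.0% (7.82% to 12.7%) among the 580 with 20 or more.

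Local density went together with the other targets and with width. SPT5 was at 22.3% of TRIM28 peaks with no other within 50 kb and at 63.4% of those with 10 or more, and their median widths were 283 and 327 bp. Among TRIM28 peaks with SPT5, the OGA share went from 6.53% (5.27% to 8.05%) to 11.2% (10.2% to 12.2%). Among those without SPT5, Pol II or O-GlcNAc it was 1.72% with no other peak nearby, 2.20% with 10 or more and between 1.92% and 3.41% in the classes from 1 to 9, in no steady order. The gap in distance also depended on height: the median nearest neighbour was 2667 bp with OGA and 3406 bp without in the lowest quintile of TRIM28 height, and 4124 and 14327 bp in the highest. It depended on the other targets too. The medians with and without OGA were close at TRIM28 peaks with SPT5 alone (2860 and 2876 bp) and with SPT5 and Pol II (1912 and 2053 bp). They were 6155 and 7546 bp with SPT5, Pol II and O-GlcNAc together, and 7028 and 11102 bp with none of these.

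OGA on 1 TRIM28 peak went with OGA on its nearest neighbour where that lay within 10 kb. The nearest TRIM28 neighbour carried OGA for 7.69% (6.65% to 8.87%) of TRIM28 peaks with OGA and for 5.17% (4.96% to 5.38%) of those without, leaving out neighbours that shared 1 OGA peak. With the neighbour less than 1 kb away the shares were 9.80% and 5.68%, from 1 to 10 kb 8.71% and 6.05%, and from 10 to 50 kb 4.44% and 4.53%, a range in which the shares did not differ beyond their intervals. Beyond 50 kb they were 5.13% (8 of 156) and 3.17%, again with overlapping intervals. TRIM28 peaks that were each other's nearest neighbour were both counted, so these intervals are narrower than independent counts would give. The shares were not split by SPT5, width or local density, and the cause of the excess was not tested.

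**Figure D3:**
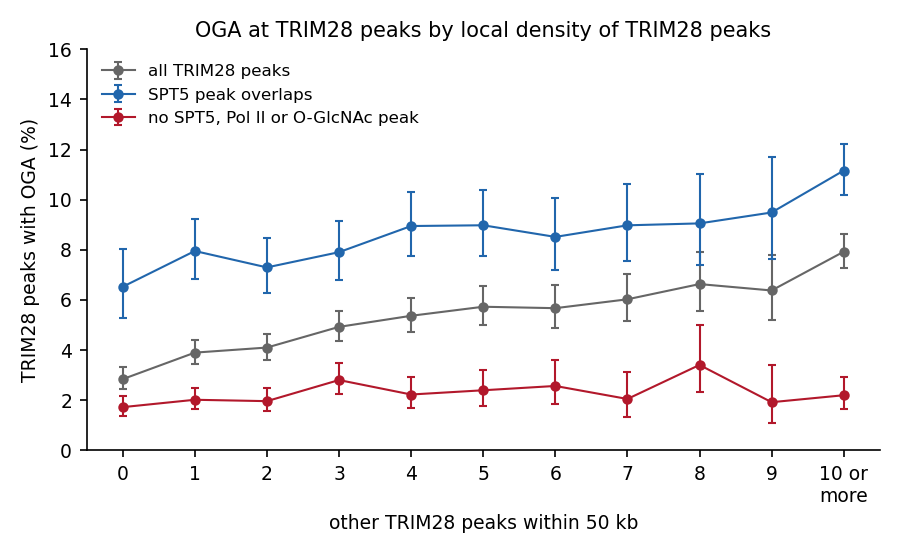
Share of TRIM28 peaks with an OGA peak (y axis, %) by the number of other TRIM28 summits within 50 kb (x axis), for all TRIM28 peaks (grey), those with SPT5 (blue) and those with no SPT5, Pol II or O-GlcNAc peak (red); bars are 95% Wilson intervals. Grey goes from 2.84% to 7.92% and blue from 6.53% to 11.2%, while red starts at 1.72% and ends at 2.20%.

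Most pairs stood alone at a scale of 100 kb. Of the fixed 100 kb windows that held a pair, 1562 held 1, 214 held 2, 48 held 3 and 18 held 4.
The richest window held 8 pairs among 45 TRIM28 peaks (chr5:14200001-14300000 in hg19, as are all positions here), and the window before it (chr5:14100001-14200000) held 6 pairs among 31. In the former 7 of the 8 pairs had SPT5 and 2 had Pol II, and OGA heights were between 2.33 and 4.66. The window chr3:197800001-197900000 held 7 pairs among only 12 TRIM28 peaks, 2 of them with SPT5 and none with Pol II. Another 2 windows on chromosome 11 also held 6 pairs and were placed after the chromosome 5 window because they had fewer TRIM28 peaks.

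Chromosomes differed about 2-fold in the share of TRIM28 peaks with OGA, and those dense in TRIM28 were the richer. The share was lowest on chromosome 4, at 3.60% (72 of 2000, 2.87% to 4.51%), and highest on chromosome 20, at 7.30% (116 of 1588, 6.12% to 8.69%), with a median over chromosomes of 4.89%. Chromosomes 19 (6.65%), 17 (6.53%) and 22 (6.13%) followed chromosome 20, with intervals that overlap its own. The 5 chromosomes with most TRIM28 peaks per Mb, which were 19, 22, 17, 20 and 16, had OGA at 6.49% of their TRIM28 peaks (6.005% to 7.01%), against 4.78% (4.56% to 5.01%) on the other autosomes. They held 26.0% of OGA and 20.9% of TRIM28 peaks.

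Over the 22 chromosomes, Spearman's rho between TRIM28 peaks per Mb and the share with OGA was 0.753. It was 0.639 after the share was standardised to the height and width makeup of all TRIM28 peaks, which brought the range to between 3.84% on chromosome 18 and 6.61% on chromosome 20. Dense chromosomes also had more SPT5: the share of TRIM28 peaks with SPT5 gave a rho of 0.805 with the share with OGA. Within TRIM28 peaks with SPT5 the rho with density was 0.499, and within those without SPT5, Pol II or O-GlcNAc it was 0.301. Chromosomes are not replicates, and the values share 1 library per target. Seen from OGA, the share with TRIM28 ranged over 12.1 percentage points, against 3.705 for the share of TRIM28 peaks with OGA, but on smaller numbers of peaks, from 83.3% on chromosome 13 (35 of 42 peaks) to 95.4% on chromosome 6 (125 of 131).

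**Figure D4:**
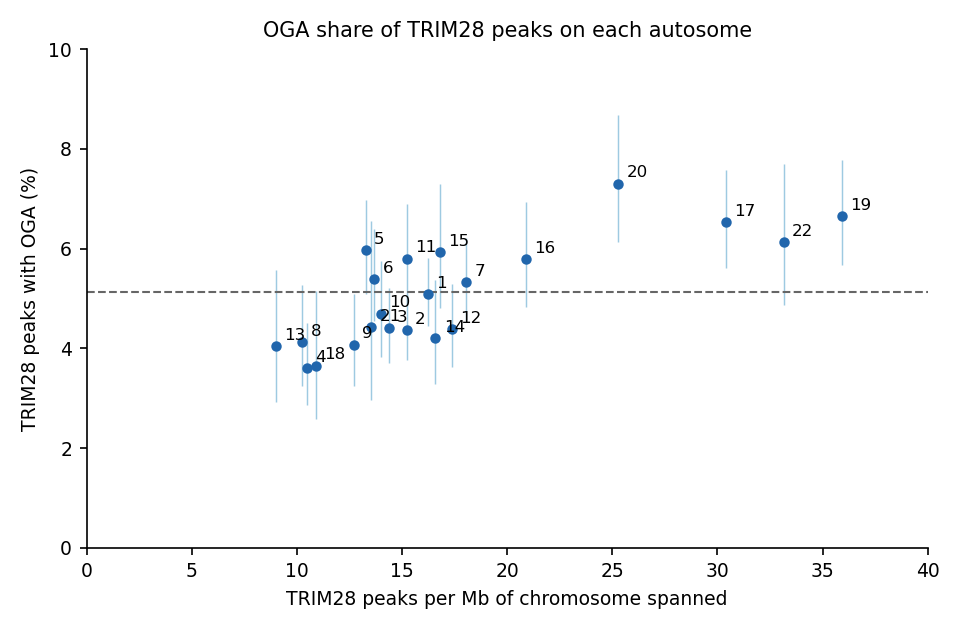
Share of TRIM28 peaks with an OGA peak (y axis, %) against TRIM28 peaks per Mb (x axis) for each of the 22 autosomes, labelled by number; bars are 95% Wilson intervals and the dashed line is the share over all TRIM28 peaks. Chromosome 4 is lowest at 3.60%, chromosome 20 highest at 7.30%, and the densest, chromosome 19, is at 6.65%.

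The heights of paired peaks agreed only loosely in rank. Spearman's rho between OGA and TRIM28 fold enrichment was 0.295 over the 2259 pairs, which share loci and their mappability, and 0.0514 by −log10 p. It was between 0.318 and 0.408 within quintiles of TRIM28 width, and by chromosome between 0.0636 (chromosome 12, 101 pairs) and 0.434 (chromosome 22, 69 pairs). Of the pairs in the top quartile of OGA height, 230 were in the top TRIM28 quartile (40.8%) and 106 in the lowest (18.8%). Of those in the lowest OGA quartile, 52 were in the top TRIM28 quartile (9.20%).

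The agreement ended at the top of the OGA list. The median TRIM28 fold enrichment was 3.05 in the lowest decile of OGA height, 4.47 in the ninth and 3.93 in the highest. Without the highest OGA decile rho was 0.356 (2034 pairs), an alternative chosen after seeing the data, and within that decile it was -0.445 (225 pairs). O-GlcNAc was at 42.7% of pairs in the highest decile and at between 13.3% and 31.0% in the other 9. Pol II was at between 50.9% and 65.5% in deciles 1 to 6, lowest in the ninth at 21.2%, and at 48.9% in the highest, close to the 48.7% over all pairs. Among pairs whose OGA peak had Pol II rho was 0.152 (1101 pairs), and among those without it was 0.393 (1158 pairs).

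No pair reached a fold enrichment of 10 in both lists, but few reached it in either, with 56 for OGA and 30 for TRIM28. At a fold enrichment of 6 the sets did overlap: 14 of the 142 pairs with OGA that high also had TRIM28 that high, as did 199 of all 2259 pairs. In the 56 pairs with an OGA fold enrichment of at least 10, TRIM28 lay between 2.00 and 5.86, and 40 of the 56 were below the median of all TRIM28 peaks. Pol II was at 80.4% of them and O-GlcNAc at 82.1%, and the OGA peak was wider than the TRIM28 peak, with medians of 708.5 and 351.5 bp. In the 30 pairs with a TRIM28 fold enrichment of at least 10, OGA lay between 2.39 and 6.88. Its median there was 4.34, above the 3.296 of OGA peaks over all pairs. Pol II was at 1 of these, SPT5 at 40.0% and O-GlcNAc at 0 of the 30, which allows a share of up to 10.0%. The OGA peak was narrow within a wide TRIM28 peak, with medians of 237 and 591.5 bp.

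**Figure D5:**
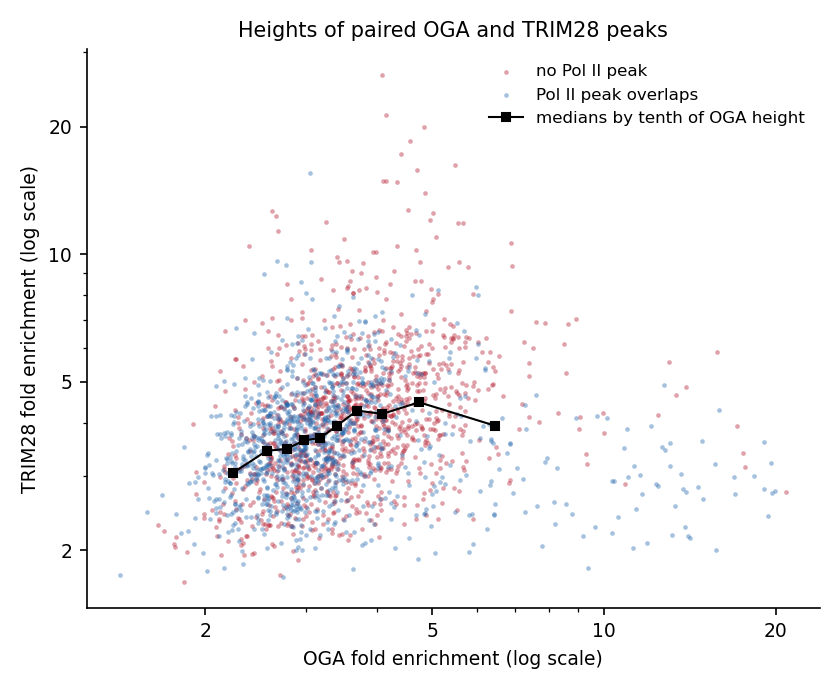
TRIM28 fold enrichment against OGA fold enrichment (both axes logarithmic) for the 2259 paired peaks, with Pol II (blue) or without (red); black squares are medians by decile of OGA height. Pairs with OGA of at least 10 all have TRIM28 between 2.00 and 5.86, and pairs with TRIM28 of at least 10 all have OGA between 2.39 and 6.88.

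Single sites show the contrast. The pair with the highest OGA peak was at chr16:12416527-12417405, where OGA reached a fold enrichment of 20.9 over 879 bp and TRIM28 2.74, with summits 74 bp apart and no peak of another target. The next 4 were at chr19:41869838-41870643 (OGA 20.0, TRIM28 2.76), chr17:1359319-1359910 (19.7 and 2.72), chr11:45376591-45377241 (19.6 and 3.21) and chr19:49954647-49955524 (19.4 and 2.41). These 4 all had Pol II, SPT5 and O-GlcNAc. The TRIM28 peaks of these pairs, the first included, were between percentiles 9.61 and 40.2 of all TRIM28 heights.

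The pair with the highest TRIM28 peak was at chr16:992247-993044, with TRIM28 at 26.5 and OGA at 4.09. It was followed by chr10:115713310-115714014 (TRIM28 21.3, OGA 4.16), chr1:18831218-18831765 (20.0 and 4.83), chr16:58971517-58972048 (18.5 and 4.57) and a site on chromosome 8 (17.3 and 4.42). None of these 5 had Pol II or O-GlcNAc, and 2 had SPT5. Their OGA peaks were between percentiles 73.0 and 84.6 of all OGA heights, so they ranked fairly high in that list too.

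The pairs that ranked well on both sides were different ones. By the worse of the 2 ranks the best was chr22:29563273-29563739, with OGA at 8.93 and TRIM28 at 7.01, ranks 67 and 92 of the pairs. The next were chr14:100952443-100953093 (OGA 6.91, TRIM28 9.38), chr3:76401290-76401488 (7.60 and 6.93), chr7:142506525-142507025 (6.88 and 7.34) and chr17:80464320-80464626 (6.88 and 10.6). All but the first had SPT5, and none had Pol II or O-GlcNAc.

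The 244 OGA peaks without TRIM28 were higher than those with it. Their median fold enrichment was 3.92 (3.61 to 4.16) against 3.296 (3.25 to 3.35), at the same median width of 236 bp. The difference of -0.621 was -0.231 when a pair had to have its summits within 250 bp. By decile of OGA height, TRIM28 was at 94.8% of peaks in the second decile and at 77.6% in the highest (194 of 250, 72.0% to 82.3%). Of the 244, 43 (17.6%) had a TRIM28 summit within 1 kb and 132 (54.1%) within 10 kb. SPT5 was at 45.5% of them (39.4% to 51.8%) and at 75.2% of OGA peaks with TRIM28, Pol II at 26.2% and 48.7%, and O-GlcNAc at 25.4% and 24.0%, with overlapping intervals for the last.

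The highest OGA peak on the autosomes had no TRIM28: it reached 26.0 at chr17:65422-66250, with O-GlcNAc but neither Pol II nor SPT5, and its nearest TRIM28 summit was 16031 bp away. The next 4 without TRIM28 were at chr19:7598706-7599203 (20.6), chr19:16295766-16296801 (18.2), chr15:89499548-89499906 (17.2) and chr17:73806157-73806807 (17.0, with a TRIM28 summit 1152 bp away). The 3 highest TRIM28 peaks without OGA were at chr1:2787708-2788301 (45.5), chr15:80207993-80208683 (37.8) and chr4:6060132-6060796 (35.7). None of the 3 had a peak of another target, and their nearest OGA summits were 223301, 737869 and 65847 bp away.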

How the data were processed

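ChIP-seq peaks of OGA, TRIM28, Pol II, SPT5 and O-GlcNAc in BJAB cells were read from 1 deposited list per target. Per the submitters' processing notes, bcl2fastq 2.17, Trimmomatic 0.30, Bowtie2 2.1.0 and the build hg19 were used. Nothing used here states the peak caller, the control library or the peak threshold. Each deposited peak has a start, an end, a summit, a fold enrichment (a ratio), a −log10 p-value, a −log10 q-value and a score, which in the deposited lists is 10 times the −log10 q-value to within 1. The lowest −log10 q was 1.33 for OGA and 1.31 for TRIM28. Replicates were 0 and read depth was unknown, so precision is given as counting error only.

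From these, overlaps of at least 1 bp on chromosomes 1 to 22 were counted in Python 3.11.15 with numpy 2.4.6, pandas 2.3.3 and scipy 1.17.1, checked against bedtools 2.31.1 and tested on simulated data. Figures were drawn with matplotlib 3.10.9. Shares have 95% Wilson intervals and medians order-statistic intervals. Neighbours were counted from summit to summit. Deciles, quintiles and quartiles are of equal size.

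Sites were named by rule: the 5 pairs highest in OGA, the 5 highest in TRIM28, the 5 with the best worse-of-2 rank, the 5 highest OGA peaks without TRIM28, the 3 highest TRIM28 peaks without OGA and the 3 windows of 100 kb with most pairs. The comparison, its lists and rules were chosen with earlier results of these data known. Positions relative to genes and sequences were not analysed here, since no hg19 annotation or genome was used. The alternatives were a −log10 q of at least 5, summits within 250 bp, an overlap of at least 50% of the shorter peak, 200 bp windows, merging within 500 bp, chromosome X, ranking by −log10 p, neighbours within 10 or 200 kb, and leaving out chromosome 19 or the highest OGA decile.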

Additional observations from a re-analysis of the deposited data

Results flagged for a closer look

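The sex chromosomes lay outside the comparison, and both lists held peaks there. Chromosome X had 58 OGA and 1005 TRIM28 peaks. TRIM28 overlapped 46 of the 58 OGA peaks (79.3%, 95% Wilson interval 67.2% to 87.7%), and OGA overlapped 4.58% of the TRIM28 peaks (3.45% to 6.05%). Chromosome Y had 6 OGA and 41 TRIM28 peaks, with 1 overlap.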

How the results depend on the processing

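Of 73 alternative values for 14 results, 47 stayed within the counting interval of the value reported, 24 moved beyond it and 2 changed sign. Each change of sign involved a value smaller than its interval half-width: -0.0706 (half-width 0.0861) and -0.123 (half-width 0.528). With a −log10 q of at least 5 in both lists (1621 OGA and 30427 TRIM28 peaks), TRIM28 was at 80.7% of OGA peaks and OGA at 4.31% of TRIM28 peaks, and the difference in TRIM28 height turned to -0.0706 from 0.264. The width difference was then 118.0 bp and the summit distance 38.0 bp. Pol II, SPT5 and O-GlcNAc peaks below this cut were dropped as well, so the classes by target were redefined. The excess was then 15.2 percentage points for Pol II and 28.8 for SPT5. The highest minus the lowest height quintile gave 10.5 points with SPT5 and -2.33 without the 3 targets. The latter class could then include TRIM28 peaks overlapped only by weaker peaks of those targets. Requiring summits within 250 bp gave shares of 86.3% and 4.92% and an OGA height difference of -0.231 (-0.621 as reported). Windows of 200 bp gave 84.4% and 4.80%. Merging peaks within 500 bp gave 5.46% of TRIM28 peaks, a width difference of 191.0 bp, a summit distance of 47.0 bp and 16.7 points with SPT5. Ranking by −log10 p gave differences of 5.80 for TRIM28 and -2.13 for OGA in that unit, a rho of 0.0514, and quintile differences of 21.04 points with SPT5 and 2.52, turned from -0.123, without the 3 targets. The neighbour difference was 12.7 points within 10 kb and 1.32 within 200 kb, against 5.88 within 50 kb. Leaving out the highest OGA decile gave a rho of 0.356. Except where the alternative itself removes peaks or changes the unit, the cause was not tested. Overlap of 50% of the shorter peak and adding chromosome X moved none of the results they were run for. Leaving out chromosome 19 was run only for the spread over chromosomes, whose ends are chromosomes 4 and 20, so it could not change it. The position relative to genes was not run. No paired analysis was possible because each target had 1 library. Unknown depth limits every statement that a TRIM28 peak lacks OGA: it had no OGA peak at this depth.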
